A study of Homo sapiens with 6 samples.

Results

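The genes described here are 51 genes of the integrated stress response in T24 cells, an established human bladder cancer cell line: the transcription factor ATF4 and its partners, genes known as ATF4 targets, and cytosolic aminoacyl-tRNA synthetases with the tRNA exporter XPOT. They were chosen by gene name and make up 51 of the 23619 genes that the deposited table lists. Bulk RNA-seq was made from 3 control libraries, labelled as untreated, and from 3 libraries of cells given 3.84 µM Caba-780 for 24 h. All 6 libraries came from cells labelled WT, grown in DMEM with serum, and the design asks which transcripts differ after Caba-780, a compound known here by its code name. The labels leave unsaid whether controls received a vehicle and whether each replicate was a culture of its own. The p-values therefore cover the differences among the 6 libraries, which may be technical, and 1 cell line at 1 dose and 1 time limits what the comparison can stand for.

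In the integrated stress response, several kinases sense amino acid shortage, unfolded proteins in the endoplasmic reticulum, double-stranded RNA or haem deficiency and phosphorylate the initiation factor eIF2. General translation then falls while translation of ATF4 mRNA increases through its upstream open reading frames, so ATF4 is controlled to a large extent at the level of its protein, which RNA-seq does not measure. ATF4 pairs with C/EBP-family proteins on composite DNA elements and is known to induce amino acid transporters, enzymes of serine and asparagine synthesis, tRNA synthetases and feedback genes such as PPP1R15A and TRIB3.

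The libraries held 14591234 to 15983035 reads in genes. Control replicate 3 stood apart. Reads were found in 13627 genes there against 19467 to 20308 in the other 5 libraries. Genes with 1 to 9 reads numbered 638 there against 5636 to 6100, and mitochondrial reads made up 4.59% against 1.64% to 3.57%. Values at or near 0 in control replicate 3 are to be read beside this shortage of low counts. The log2 values of control replicate 3 correlated with those of the other libraries at Pearson's r of 0.917 to 0.925 across genes. The other pairs reached 0.966 to 0.979. Among the 51 genes, control replicate 3 lay below both other controls in 31 and above both in 20. The matching shares of all genes are not given here. Of the 49 tested genes, 34.7% lay more than 2-fold from the other controls in control replicate 3, against 43.1% of all tested genes. Each result is therefore given over all 6 libraries and over 5 libraries, without control replicate 3. The keratin genes KRT7, KRT8 and KRT18 and the urothelial gene UPK1B were detected in every library, GATA3, UPK1A and UPK2 did not exceed 14.7 normalized counts, and EPCAM stood at 38.3 normalized counts in control replicate 3 and at 0 in the other 5. LYZ, the leukocyte marker analysed here, did not exceed 2.95 normalized counts in any library. Of 6 fibroblast and endothelial markers analysed here, 1 passed the filter on low values, COL1A1, with 485, 321 and 242 normalized counts in the controls and 225, 118 and 203 with Caba-780. Fewer cells and less RNA per cell cannot be told apart in bulk libraries.

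Over 5 libraries, 26 of the 49 tested genes were higher with Caba-780 and 0 were lower. Values are the authors' normalized counts, reads per gene divided by a size factor per library, and genes were tested with limma on log2(normalized count + 1) at a Benjamini-Hochberg adjusted p under 0.05 over all genes. Among all 13708 genes tested, 17.2% were called higher and 15.2% lower. Over 6 libraries, 5 of 49 were called higher, namely SESN2, TRIB3, PHGDH, SLC1A4 and CEBPG, where 0.744% of 13847 tested genes were called higher and 0.26% lower. No tested gene of the 49 was called lower over 6 libraries by limma, edgeR, DESeq2 or limma-voom, and at an unadjusted limma p under 0.05 the count was 0 over 6 libraries and 1, SLC38A2, over 5. The 5 calls over 6 libraries were lost when any 1 library other than control replicate 3 was left out. Each of these fits gave 0 calls among the 49 genes, while leaving out control replicate 3 gave 26. Counts over all genes in the fits with 0 calls, and at an unadjusted p, are not given here.

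The median log2 change of the 49 genes was 0.63 over 6 libraries and 0.46 over 5, beside 0.10 and −0.02 for all genes tested. Scaling by library totals in place of the deposited size factors moved the median of all genes to 0.23 over 6 libraries and to 0.08 over 5, and that of the 49 genes to 0.76 and 0.55. Upper-quartile scaling moved the 6-library medians to −0.01 for all genes and 0.53 for the 49. Under library totals, 2956 genes were called higher and 1330 lower over 5 libraries, against 2359 and 2077 in the main comparison. Every Caba-780 library lay above every control library for 27 of the 49 genes, where 17.9% of all tested genes did so, and below every control library for 3, KARS, ALDH18A1 and SLC38A2, where 13.4% of all tested genes did so. The 26 genes called over 5 libraries were above control replicates 1 and 2 in all 3 Caba-780 libraries. This largely follows from the call, which used these same libraries, and is no separate evidence. Of the 26, 23 were also above control replicate 3, the exceptions being GARS, TARS and IARS. The matching share of all called genes was not computed.

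**Figure D1:**
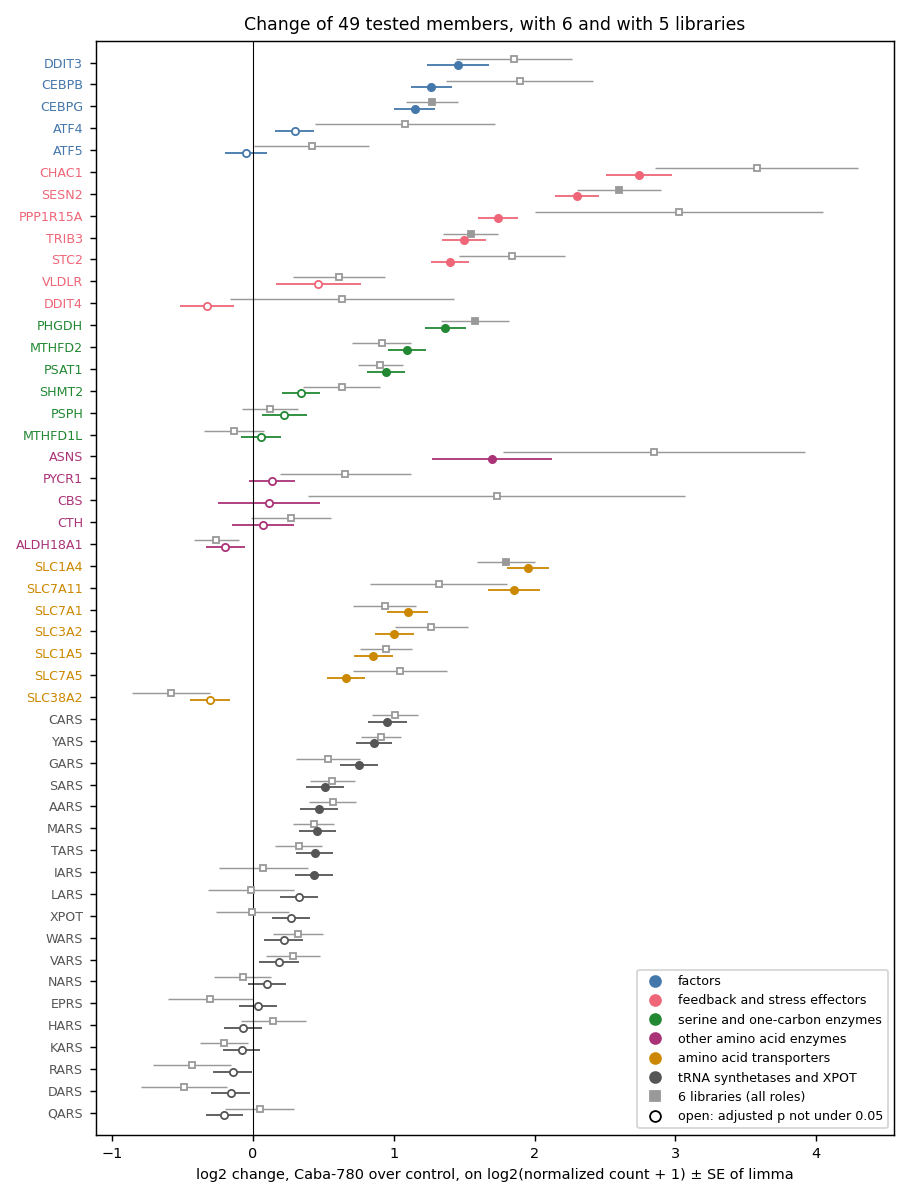
Log2 change with Caba-780 over control (x axis) with the standard error from limma for each of the 49 tested genes (y axis), over 6 libraries (grey squares) and over 5 libraries without control replicate 3 (coloured circles, by role). Filled symbols passed an adjusted p under 0.05, which 26 genes did over 5 libraries and 5 over 6.

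The composite C/EBP-ATF element was searched for as TGATGNAA, or TTNCATCA on the other strand, because it is the sequence through which ATF4 is known to act at several of these genes. The window ran from 250 bases before to 50 after the annotated start in RefSeq promoters (GRCh38.p14), in which 41 of the 51 genes had an entry. It occurred in 11 of those 41 promoters (26.8%), against 1270 of 35116 promoters (3.62%) and 1.56% of the 9929 tested genes whose symbol had a promoter entry. Of the 41, the element was present in 9 of the 24 genes called over 5 libraries and in 2 of the other 17. The difference between these shares was not tested and rests on 11 promoters. ASNS, AARS, MARS, IARS and TARS, among the 9, did not keep their call in every alternative. Many of the genes were chosen as known ATF4 targets, so a share above that of other promoters is tied to the choice and is no separate evidence. Older symbols were updated for the 51 genes, while tested genes were matched by the deposited symbol only. A match of letters is a description and not a measured binding site. The 11 stretches of 30 bases, read 5′ to 3′ on the strand of the gene with the element in capitals, were as follows.
ASNS (chr7:97872458-97872487, minus strand, element starting at −68 from the start): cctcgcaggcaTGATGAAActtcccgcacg
CHAC1 (chr15:40953251-40953280, plus strand, at −209): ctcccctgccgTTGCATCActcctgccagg
MTHFD1L (chr6:150866346-150866375, plus strand, at −129): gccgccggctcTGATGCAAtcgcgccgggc
SLC3A2 (chr11:62881719-62881748, plus strand, at 38): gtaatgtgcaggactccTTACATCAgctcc
SLC7A1 (chr13:29595663-29595692, minus strand, at 8): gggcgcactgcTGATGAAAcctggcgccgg
AARS (chr16:70289675-70289704, minus strand, at −187): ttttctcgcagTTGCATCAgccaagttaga
MARS (chr12:57488053-57488082, plus strand, at −4): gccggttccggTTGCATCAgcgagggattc
NARS (chr18:57621804-57621833, minus strand, at 15): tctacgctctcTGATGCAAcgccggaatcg
IARS (chr9:92293692-92293721, minus strand, at −13): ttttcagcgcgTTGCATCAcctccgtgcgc
TARS (chr5:33440956-33440985, plus strand, at 3): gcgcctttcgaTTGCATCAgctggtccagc
CARS (chr11:3057407-3057436, minus strand, at −2): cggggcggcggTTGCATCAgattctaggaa
The synthetase genes account for 6 of the 11, and MTHFD1L and NARS are the 2 with the element that were not called over 5 libraries.

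Among the transcription factors, CEBPB, CEBPG and DDIT3 rose over 5 libraries, CEBPG rose over 6 as well, and ATF4 and ATF5 did not pass in either comparison. Thus 3 of 5 tested factors were called over 5 libraries, beside 17.2% of all tested genes called higher. Their median log2 change was 1.15. ATF4 (ENSG00000128272, chromosome 22 of hg38, 39519695 to 39522685) had 3493, 4342 and 759 normalized counts in control replicates 1 to 3 and 4797, 4441 and 5127 in the Caba-780 libraries. The Caba-780 values lay above all controls, but by a small margin over control replicate 2, and control replicate 3 lay far below the rest. The log2 change of ATF4 mRNA was 1.08 ± 0.64 (SE, limma adjusted p = 0.441) over 6 libraries and 0.30 ± 0.14 (adjusted p = 0.102, 95% interval 0.01 to 0.58) over 5. It passed over 5 libraries with library totals (0.39, adjusted p = 0.0305) and without Caba-780 replicate 2 (0.35, adjusted p = 0.0465).

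CEBPG (ENSG00000153879, chromosome 19, 33373330 to 33382686), which encodes a C/EBP partner of ATF4, had 457, 470 and 359 normalized counts in the controls and 963, 1091 and 1034 with Caba-780. The groups did not overlap, and control replicate 3 was only a little below the other controls. Its log2 change was 1.27 ± 0.19 over 6 libraries and 1.15 ± 0.15 over 5 (limma adjusted p = 0.0431 and 7.39e-07). The 6-library call of CEBPG was lost without the filter on low values. CEBPB (ENSG00000172216, chromosome 20, 50190734 to 50192689), another C/EBP factor, had 684, 667 and 182 normalized counts in the controls and 1656, 1443 and 1797 with Caba-780. Here too the groups did not overlap, yet the low value in control replicate 3 widened the spread, and the change of 1.27 ± 0.14 over 5 libraries (limma adjusted p = 1.33e-07) stood beside 1.90 ± 0.52 over 6 (adjusted p = 0.164).

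DDIT3, which encodes the stress-induced factor CHOP, had 60.1, 102 and 33.8 normalized counts in the controls and 208, 203 and 242 with Caba-780. All Caba-780 values were above all controls, with a log2 change of 1.46 ± 0.22 over 5 libraries (limma adjusted p = 1.35e-05). DDIT3 shares 355 exon bases, 27.2% of its own, with MARS on the opposite strand, and as the strand setting of the counting is not given in the sources used here, reads of the pair cannot be told apart there. ATF5, a factor related to ATF4, changed by −0.05 over 5 libraries (interval −0.36 to 0.26) and shares 21.2% of its exon bases with NUP62 on the opposite strand. NUPR1, a small stress-induced nuclear protein, was under the filter on low values, with 4, 2 and 0 reads in the controls and 17, 6 and 22 with Caba-780. Without the filter its log2 change was 1.80 ± 0.64 over 5 libraries (limma adjusted p = 0.0302), and over 6 it did not pass (adjusted p = 0.340).

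**Figure D2:**
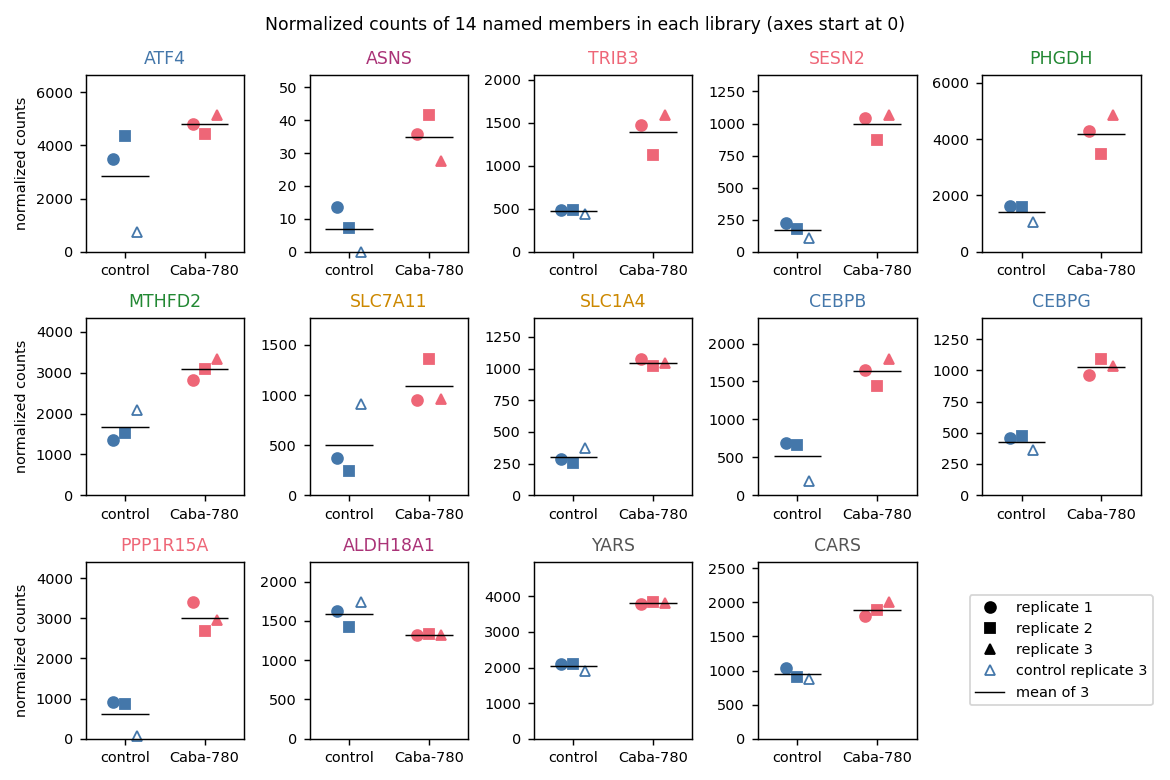
Normalized counts (y axis, starting at 0) in each library for 14 of the genes, with controls in blue and Caba-780 in red, the marker shape giving the replicate and the line the mean of 3. The Caba-780 libraries lie above all controls in 13 panels, and in the ALDH18A1 panel they lie below them, at 1324 to 1328 against 1423 to 1735. Apart from ATF4, the panels show genes called over 6 libraries or among the lowest p of their role group over 5 libraries. The separation therefore largely follows from this choice and is no separate evidence. Of all genes tested over 6 libraries, 17.9% had every Caba-780 library above every control library and 13.4% below.

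The genes of feedback and stress output held the 2 largest changes over 5 libraries, in CHAC1 and SESN2. Over 5 libraries 5 of 7 were called higher, beside 17.2% of all tested genes, with a median log2 change of 1.50. Over 6 libraries 2 of 7 were called, beside 0.744% of all tested genes. SESN2 (ENSG00000130766, chromosome 1, 28259527 to 28282491) encodes sestrin 2, a leucine sensor that restrains mTORC1. It had 221, 180 and 107 normalized counts in the controls and 1045, 869 and 1063 with Caba-780. The groups were far apart, at 4.95-fold between the means without control replicate 3. The log2 change was 2.60 ± 0.30 over 6 libraries and 2.30 ± 0.16 over 5 (limma adjusted p = 0.0303 and 8.74e-12). TRIB3 (ENSG00000101255, chromosome 20, 362835 to 397559), a pseudokinase that inhibits ATF4 activity, had 489, 487 and 440 normalized counts in the controls and 1469, 1126 and 1585 with Caba-780. Its 3 controls lay close together, control replicate 3 included, and the log2 change was nearly the same in both comparisons, 1.55 ± 0.20 and 1.50 ± 0.16 (limma adjusted p = 0.0367 and 2.24e-08).

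PPP1R15A (ENSG00000087074, chromosome 19, 48872392 to 48876057) encodes GADD34, the subunit that directs a phosphatase to eIF2 and ends the response. Normalized counts were 917, 875 and 60.9 in the controls and 3394, 2679 and 2948 with Caba-780. The groups did not overlap, and control replicate 3 was the lowest by a wide margin. The log2 change of PPP1R15A was 1.74 ± 0.14 over 5 libraries (limma adjusted p = 2.01e-10) and 3.03 ± 1.02 over 6 (adjusted p = 0.228). CHAC1, a glutathione-degrading enzyme named here after its values were seen, had 48.5, 27.8 and 5.64 normalized counts in the controls and 276, 231 and 249 with Caba-780, with no overlap. Its log2 change over 5 libraries, 2.74 ± 0.24 (limma adjusted p = 6.76e-10), was the highest of the 49, and it did not pass over 6 (3.58 ± 0.72, adjusted p = 0.0972).

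STC2, a secreted glycoprotein, had 1141, 995 and 426 normalized counts in the controls and 2760, 2739 and 2935 with Caba-780, and rose by 1.40 on the log2 scale over 5 libraries. VLDLR, a lipoprotein receptor, changed by 0.46 (interval −0.15 to 1.08) and was not called. DDIT4, an mTORC1 inhibitor also named REDD1, had 622, 613 and 83.5 normalized counts in the controls and 516, 355 and 654 with Caba-780. Its groups overlapped, and its log2 change was −0.32 over 5 libraries (interval −0.72 to 0.07) and 0.63 over 6. It passed as lower without Caba-780 replicate 3 (−0.53, limma adjusted p = 0.0246). An antisense gene, DDIT4-AS1, covers 41.2% of its exon bases, so that reads of the pair cannot be told apart without strand.

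Of the serine and one-carbon enzymes, PHGDH, PSAT1 and MTHFD2 rose over 5 libraries. That is 3 of 6 tested, beside 17.2% of all tested genes called higher, with a median log2 change of 0.64. PHGDH alone passed over 6 libraries, where 0.744% of all tested genes were called higher. PHGDH (ENSG00000092621, chromosome 1, 119648411 to 119744226) catalyses the first step of serine synthesis from a glycolytic intermediate. It had 1626, 1595 and 1043 normalized counts in the controls and 4281, 3462 and 4838 with Caba-780. All Caba-780 libraries were above all controls, at a log2 change of 1.58 ± 0.24 over 6 libraries and 1.37 ± 0.14 over 5 (limma adjusted p = 0.0490 and 3.06e-08). The 6-library call was lost with TMM scaling (adjusted p = 0.0514) and with a pseudocount of 0.5 (adjusted p = 0.0503). PSAT1, the next enzyme of the pathway, had 1994, 2082 and 2205 normalized counts in the controls and 3501, 4037 and 4260 with Caba-780, a log2 change of 0.94 over 5 libraries. PSPH, the last enzyme, was not called, at 0.22 (interval −0.10 to 0.55).

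MTHFD2 (ENSG00000065911, chromosome 2, 74198562 to 74217565) encodes a mitochondrial folate enzyme. Its normalized counts were 1361, 1531 and 2089 in the controls and 2827, 3092 and 3339 with Caba-780. The groups did not overlap although control replicate 3 was the highest control, and the log2 change was 1.09 ± 0.14 over 5 libraries (limma adjusted p = 6.26e-07) and 0.91 ± 0.21 over 6 (adjusted p = 0.121). MTHFD2 shares 27.2% of its exon bases with SLC4A5 and has 7 pseudogenes named after it, so its reads may be split. SHMT2, which makes glycine from serine in mitochondria, had a log2 change of 0.34 over 5 libraries (interval 0.06 to 0.62, limma adjusted p = 0.0555). It passed without Caba-780 replicate 2 (limma adjusted p = 0.00836), under library totals (0.0156) or TMM scaling (0.0497), and with DESeq2 (0.0397). MTHFD1L, a mitochondrial formyltetrahydrofolate synthetase whose promoter holds the element printed above, changed by 0.05 (interval −0.23 to 0.34). ALDH1L2, another mitochondrial folate enzyme, was under the filter, with 5, 1 and 0 reads in the controls and 10, 8 and 3 with Caba-780.

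In the other amino acid enzymes, ASNS was called and the remaining 4 were not, with a median log2 change of 0.11 over 5 libraries. The share called higher, 20%, was close to the 17.2% of all tested genes. ASNS (ENSG00000070669, chromosome 7, 97852118 to 97872542) encodes asparagine synthetase, a widely used ATF4 target. Its read count was low, with 14, 7 and 0 reads in the controls and 40, 44 and 28 with Caba-780, or 13.6, 7.20 and 0 against 35.8, 41.5 and 27.5 normalized counts. The groups did not overlap. The log2 change was 1.70 ± 0.43 over 5 libraries (limma adjusted p = 0.00325) and 2.85 ± 1.07 over 6 (adjusted p = 0.258), and without control replicate 2 the change over the remaining libraries no longer passed (adjusted p = 0.0529). A transcript on the same strand, AC079781.5, shares 44.6% of the exon bases of ASNS, and 4 pseudogenes are named after ASNS. The count of ASNS is therefore uncertain and does not show how abundant its transcript was.

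ALDH18A1 (ENSG00000059573, chromosome 10, 95605929 to 95656706), the first enzyme of proline synthesis from glutamate, had 1621, 1423 and 1735 normalized counts in the controls and 1324, 1328 and 1325 with Caba-780. The Caba-780 values were nearly identical and below all controls, at a log2 change of −0.20 ± 0.14 over 5 libraries (interval −0.48 to 0.09, limma adjusted p = 0.293). PYCR1, which completes proline synthesis, changed by 0.13 (interval −0.21 to 0.47) and passed without Caba-780 replicate 2 (limma adjusted p = 0.0350). CBS and CTH, the enzymes that carry sulfur from homocysteine to cysteine, changed by 0.11 (interval −0.70 to 0.92) and 0.07 (interval −0.38 to 0.52). CBS varied most among the controls, at 255, 98.8 and 4.51 normalized counts, against 201, 127 and 198 with Caba-780, so that its groups overlapped. CBS passed without control replicate 1 (limma adjusted p = 0.0362).

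Amino acid transporters had the highest share of called genes, 6 of 7 over 5 libraries at a median log2 change of 1.00. Of all tested genes, 17.2% were called higher over 5 libraries and 0.744% over 6, where SLC1A4 was the 1 transporter called. SLC1A4 (ENSG00000115902, chromosome 2, 64988477 to 65023865) encodes a carrier of alanine, serine and cysteine. It had 289, 251 and 373 normalized counts in the controls and 1076, 1021 and 1046 with Caba-780. The groups were widely separated, at 3.88-fold between the means without control replicate 3. The log2 change was 1.80 ± 0.20 over 6 libraries and 1.96 ± 0.15 over 5 (limma adjusted p = 0.0262 and 6.26e-11). SLC7A11 (ENSG00000151012, chromosome 4, 138164097 to 138242349), the cystine-glutamate exchanger, had 369, 240 and 907 normalized counts in the controls and 954, 1361 and 963 with Caba-780. Control replicate 3 nearly reached the Caba-780 range, and the log2 change was 1.85 ± 0.18 over 5 libraries (limma adjusted p = 7.25e-08) and 1.32 ± 0.49 over 6 (adjusted p = 0.254).

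SLC7A5 and SLC3A2 encode the light and heavy chains of LAT1, the exchanger of large neutral amino acids, and SLC3A2 also pairs with SLC7A11. SLC3A2 had 5505, 5107 and 3062 normalized counts in the controls and 10809, 9394 and 11835 with Caba-780. SLC7A5 had 18643, 15610 and 7712 in the controls and 29014, 25937 and 26022 with Caba-780. Neither pair of groups overlapped, and both genes were lowest in control replicate 3, with log2 changes of 1.00 and 0.66 over 5 libraries (limma adjusted p = 2.47e-06 and 0.000567). SLC7A1, a cationic amino acid carrier, and SLC1A5, a glutamine carrier, rose by 1.10 and 0.86 on the log2 scale. The exception was SLC38A2, a glutamine and alanine carrier, at 9375, 9221 and 16590 normalized counts in the controls and 6984, 9061 and 6740 with Caba-780. Its Caba-780 values lay below all controls, with a log2 change of −0.30 over 5 libraries (interval −0.60 to −0.01, limma adjusted p = 0.102), and it passed as lower without Caba-780 replicate 2 (−0.44, adjusted p = 0.0109).

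Cytosolic tRNA synthetases charge each tRNA with its amino acid. Of the 18 measured, 8 rose over 5 libraries, or 44.4%, beside 17.2% of all tested genes. The median log2 change was 0.27, below the median of every other role group except the other amino acid enzymes. None was called over 6 libraries by edgeR or by limma in the main setting, against 5 by DESeq2 and 2 by limma-voom, and 5 had an unadjusted limma p under 0.05. Limma called 2 over 6 libraries under library totals, TMM scaling, a pseudocount of 5 or a filter of 50 normalized counts. CARS (ENSG00000110619, chromosome 11, 3000922 to 3057613), for cysteine, had 1044, 913 and 873 normalized counts in the controls and 1803, 1883 and 1998 with Caba-780. YARS (ENSG00000134684, chromosome 1, 32775237 to 32818153), for tyrosine, had 2098, 2107 and 1895 in the controls and 3785, 3829 and 3826 with Caba-780. In both, the replicates of each group were close together and the groups did not overlap. CARS changed by 1.01 ± 0.16 over 6 libraries and 0.96 ± 0.14 over 5 (limma adjusted p = 0.0538 and 6.81e-06), and YARS by 0.91 ± 0.15 and 0.86 ± 0.13 (adjusted p = 0.0516 and 1.20e-05).

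The other 6 called synthetase genes rose less, by 0.75 for GARS (glycine), 0.51 for SARS (serine), 0.47 for AARS (alanine), 0.46 for MARS (methionine), 0.44 for TARS (threonine) and 0.43 for IARS (isoleucine) on the log2 scale over 5 libraries. For 5 of these the call depended on which library was left out. Leaving out control replicate 2 gave 4 called synthetase genes in place of 8 (AARS, MARS, IARS and TARS had adjusted p of 0.122, 0.0902, 0.0821 and 0.0638 by limma). Leaving out control replicate 1 gave 5 (SARS, IARS and TARS at 0.058, 0.0526 and 0.0708), and TARS was also lost without Caba-780 replicate 3 (0.0637). MARS carries the overlap with DDIT3 described above, which covers 5.05% of its exon bases.

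Of the 10 synthetase genes not called over 5 libraries, none changed by more than 0.35 in size. LARS (leucine) had a log2 change of 0.33 (interval 0.05 to 0.60, limma adjusted p = 0.0609) and passed under library totals (adjusted p = 0.0161) and with DESeq2 (adjusted p = 0.0379). WARS (tryptophan) stood at 0.22 (−0.07 to 0.50) and VARS (valine) at 0.19 (−0.11 to 0.48), the last passing without Caba-780 replicate 2 (limma adjusted p = 0.0482). NARS (asparagine) stood at 0.10 (−0.18 to 0.37), EPRS (glutamate and proline) at 0.03 (−0.24 to 0.31), HARS (histidine) at −0.07 (−0.35 to 0.21) and KARS (lysine) at −0.08 (−0.35 to 0.19). The lowest were RARS (arginine) at −0.14 (−0.43 to 0.14), DARS (aspartate) at −0.16 (−0.44 to 0.12) and QARS (glutamine) at −0.21 (−0.47 to 0.06). The interval of each of these 3 includes 0. XPOT, which exports tRNA from the nucleus, changed by 0.27 (−0.01 to 0.55) and passed under library totals (limma adjusted p = 0.0383).

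In mammals, 8 of these synthetase genes encode enzymes held in the multi-synthetase complex, and 2 of these 8, MARS and IARS, were called over 5 libraries, with a median log2 change of −0.02. Of the 10 genes whose enzymes act outside it, 6 were called, with a median of 0.45. The shares called higher were 25% and 60%, beside 17.2% of all tested genes. With 8 genes, the share of the complex is not far from that of all tested genes. The difference between the groups was not tested, and the split was chosen with earlier results known. The count of 2 in the complex was 0 without control replicate 2, 1 without control replicate 1, and 3 under library totals or with DESeq2. The count of 6 outside it was 4 without control replicate 1 or control replicate 2. Under library totals the medians were 0.07 and 0.55. Control replicate 3 differed along the same line: its values lay at a median log2 of 0.94 relative to the other controls for the complex and −0.16 for the other 10. Its part in the 6-library medians of −0.11 and 0.43 was not tested, while the 5-library medians do not include it.

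**Figure D3:**
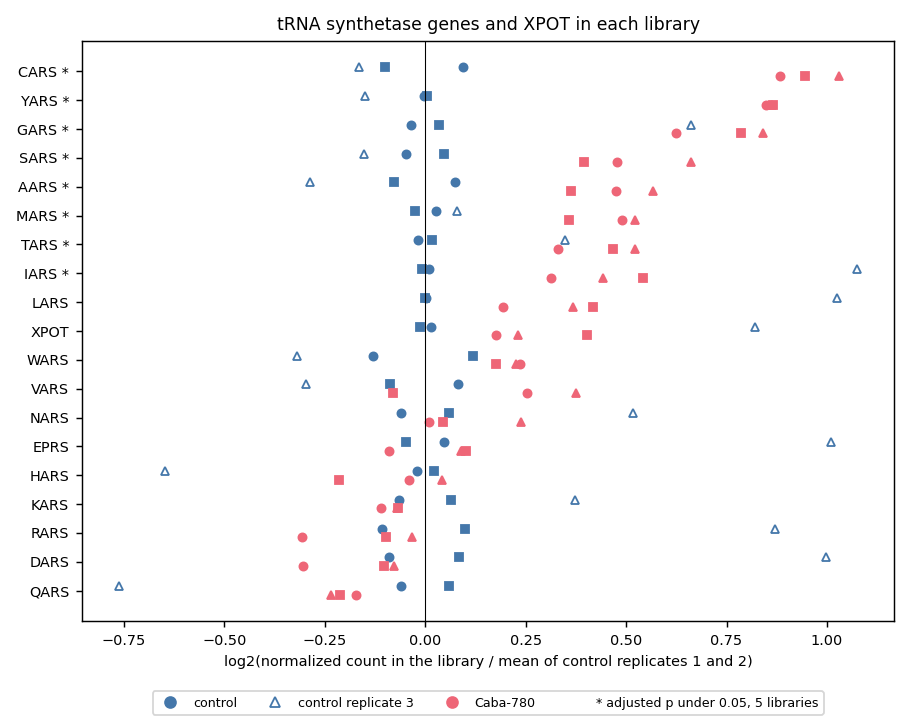
Log2 ratio of the normalized count in each library to the mean of control replicates 1 and 2 (x axis) for the 18 synthetase genes and XPOT (y axis, with an asterisk where called over 5 libraries), with controls in blue and Caba-780 in red. Control replicates 1 and 2 lie near 0, open triangles of control replicate 3 spread to both sides, and the Caba-780 libraries run from above 0.75 for CARS and YARS to below 0 for QARS.

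Per kilobase of gene length, the 51 genes spanned a wide range of levels. SLC7A5 was the most abundant, at a mean of 3609 normalized counts per kilobase in control replicates 1 and 2 and 5688 with Caba-780. ATF4 was next in the controls, at 1558, and stood at 1905 with Caba-780, below SLC3A2. KARS, at 1356 and 1280, was the most abundant synthetase gene. SLC3A2, the heavy chain that SLC7A5 needs, stood at 1025 and 2062. At the other end, ASNS stood at 2.33 and 7.84 and NUPR1 at 0.523 and 2.50, levels at which few reads carry the value. CHAC1 (18.5 and 123), SLC7A11 (31.5 and 113) and SLC1A4 (38.9 and 151) were low in the controls, and SESN2 stood at 58.1 and 287. Pseudogenes named after ATF4 and PSAT1 (4 each), KARS (3), and SLC7A5 and CARS (2 each) are annotated, so reads of these genes may be split.

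**Figure D4:**
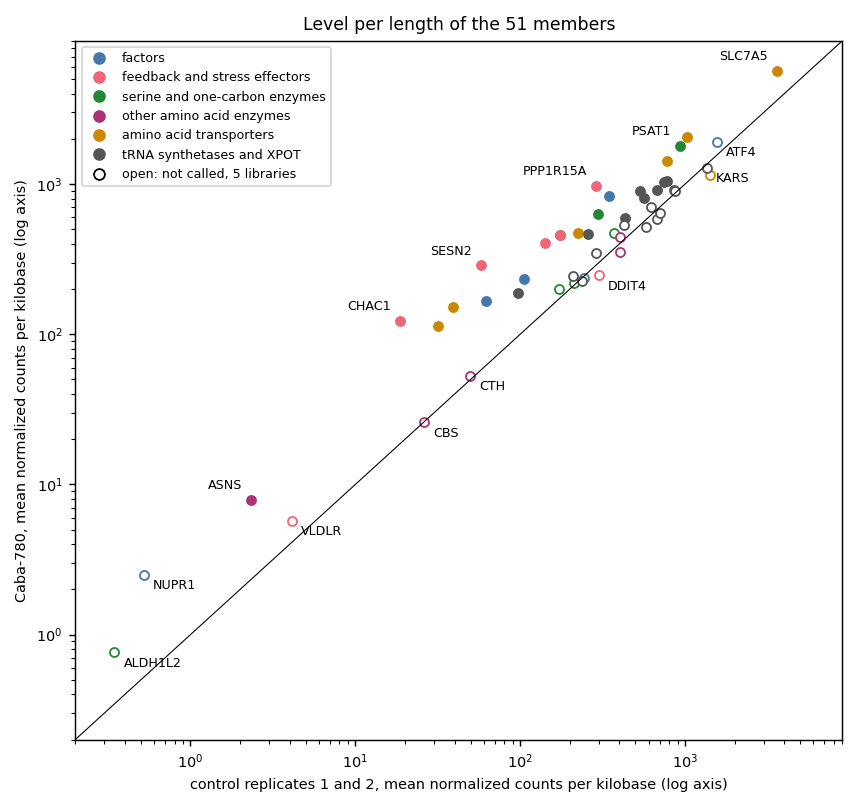
Mean normalized counts per kilobase in control replicates 1 and 2 (x axis, log) and in the 3 Caba-780 libraries (y axis, log) for the 51 genes, coloured by role, filled where called over 5 libraries, with the line of equal level. SLC7A5 lies highest at 3609 and 5688, ALDH1L2 lowest at 0.346 and 0.762, and the filled points lie above the line.

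Other genes of the pathway, outside the 51, were compared by lists. Among 17 genes for the eIF2 kinases, eIF2 and its exchange factor eIF2B, 3 rose over 5 libraries and 0 fell, with a median log2 change of 0.13; the share that rose, 17.6%, was close to the 17.2% of all tested genes. EIF2S2 and EIF2S1, subunits of eIF2, changed by 0.41 and 0.39 (limma adjusted p = 0.0232 and 0.0281), and DNAJC3, an inhibitor of eIF2 kinases, was the third. The count of 3 was 1 without control replicate 1 or control replicate 2, and 0 without Caba-780 replicate 3. Without Caba-780 replicate 2, or under upper-quartile scaling, 2 were called higher and 1 lower. At an unadjusted p under 0.05, 1 gene of this list was lower, and edgeR, DESeq2 and limma-voom also called 3 higher and 0 lower.

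Of 16 tested genes on a list of further ATF4 targets, 11 rose and 1 fell over 5 libraries, with a median log2 change of 0.56. Among all tested genes, 17.2% were called higher and 15.2% lower. TNFRSF10B, which encodes the death receptor DR5, had 1385, 1266 and 784 normalized counts in the controls and 2895, 3016 and 2746 with Caba-780, a log2 change of 1.12 (limma adjusted p = 3.00e-07). JDP2, a leucine zipper protein that binds AP-1 sites, had 49.5, 31.9 and 0 in the controls and 152, 113 and 178 with Caba-780, a log2 change of 1.84 (adjusted p = 4.10e-06). The Caba-780 libraries lay above all controls for both. The 1 that fell was GDF15, a stress-induced cytokine, with 3484, 4290 and 522 in the controls and 2181, 1432 and 2003 with Caba-780. Its change was −1.07 over 5 libraries (limma adjusted p = 1.62e-05) and −0.11 over 6, since control replicate 3 lay below the Caba-780 range. The count of 11 was 7 without control replicate 2.

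Of the 17 genes on a list of mitochondrial tRNA synthetases, 1 rose and 4 fell over 5 libraries, with a median log2 change of −0.06. This stood beside 17.2% higher and 15.2% lower among all tested genes. IARS2, for isoleucine, had 4886, 4582 and 8095 normalized counts in the controls and 3025, 3254 and 3120 with Caba-780, with no overlap and a change of −0.60 (limma adjusted p = 0.000982). Under library totals the number that fell was 1 and the median 0.04. The number that fell was 2 without control replicate 1 or Caba-780 replicate 3 and 1 without control replicate 2, and the number that rose was 0 without any 1 of the 5 libraries and with edgeR or DESeq2.

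In the further cytosolic synthetase and scaffold genes, 1 of 6 rose over 5 libraries, or 16.7% beside 17.2% of all tested genes. It was SEPSECS, which makes selenocysteinyl-tRNA, at 0.92 (limma adjusted p = 0.00118), while AIMP2, a scaffold of the complex, stood at −0.20 (adjusted p = 0.349). Among 17 further folate, proline and cysteine enzymes, 3 rose and 2 fell, shares near the 17.2% and 15.2% of all tested genes, with MAT2A, which makes S-adenosylmethionine, at −0.62 (limma adjusted p = 0.000704). The count of 3 was 1 without control replicate 2, and 2 without control replicate 1, Caba-780 replicate 2 or Caba-780 replicate 3, while the number that fell was 3 without Caba-780 replicate 2. Of 8 further amino acid transporters, 2 rose (25%) and 2 fell, beside 17.2% and 15.2% of all tested genes. These counts are too small to set the list apart. The lowest p belonged to SLC6A6, a taurine carrier, at −0.83 and SLC1A1, a glutamate carrier, at −1.18 (limma adjusted p = 0.000162 and 0.000551). For this list the count of 2 that rose was 1 without control replicate 1. None of the genes on these 6 lists was called over 6 libraries by limma in the main setting, edgeR or limma-voom, and DESeq2 called 4 further ATF4 targets higher and 1 mitochondrial synthetase and 1 further transporter lower. At an unadjusted limma p under 0.05 over 6 libraries, 8 further ATF4 targets and 1 of the folate, proline and cysteine enzymes were higher, and 3 mitochondrial synthetases and 1 further transporter were lower.

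**Figure D5:**
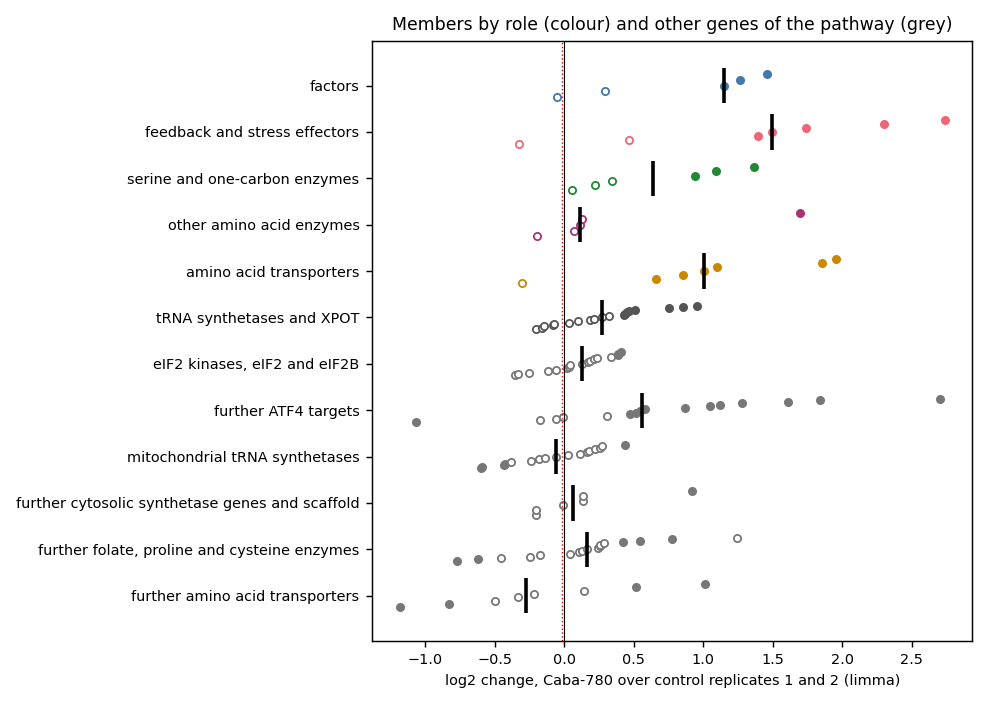
Log2 change over 5 libraries (x axis, limma) of each tested gene by list (y axis), with the 49 in colour and other genes of the pathway in grey, filled where called, a black bar at each list's median and a dotted line at the median of all genes, −0.02. Feedback and stress effectors have the highest median, 1.50, and further amino acid transporters the lowest, −0.28.

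The authors' deposited table, which compares all 6 libraries, gave an adjusted p under 0.05 to 17 of the 51 genes as higher and to 0 as lower, beside 2.35% and 1.2% of the 23617 genes with a p-value. All 17 were among the 26 called over 5 libraries, and 5 of them were called over 6 libraries by limma. CHAC1, DDIT3, CEBPB, PPP1R15A and STC2 were among the 17, with log2 fold changes of 3.20, 1.73, 1.68, 2.28 and 1.72 in the authors' deposited table. CARS and YARS were the synthetase genes among them, at 1.01 and 0.91 in the authors' deposited table. ATF4 stood at 0.74 with an adjusted p of 0.529, ASNS at 2.32 with 0.126 and SLC7A11 at 1.11 with 0.196 in the authors' deposited table.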

How the data were processed

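The submitters' processing notes name the hg38 build and list DESeq2 1.20.0, featureCounts 1.5.0-p3, HISAT2 2.0.5 and fastp. No strand setting or annotation is given in the sources used here. The deposited library columns hold a signal, the authors' read count of each gene after division by the size factor of that library. Whole reads were recovered from 100% of values at a tolerance of 1e-06. The authors also deposited group means (equal to those of the library columns within 4.07e-10), a log2 fold change, a p-value and an adjusted p-value for each gene, and a gene length, which served for levels per kilobase. Start and end equalled GENCODE v29 in 23616 of 23619 rows and in all 51 genes described.

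Groups and replicate numbers came from sample titles. The main test was limma 3.58.1 (R 4.3.3) on log2(normalized count + 1), with a mean-variance trend, robust moderation and two-sided tests, on genes that reached 10 normalized counts in 3 or more libraries, and p-values adjusted over all genes tested. The log2(value + 1) scale understates the change of low genes, while a gene at or near 0 in 1 library can show a larger change than the group means give. Over 5 libraries the controls are 2 libraries. NUPR1 and ALDH1L2 were under the filter. edgeR 4.0.16, DESeq2 1.42.0 and limma-voom on recovered reads, other scalings, pseudocounts, filters and thresholds, a replicate block and leaving out each library were alternatives. The scripts were tested on simulated data. A floor of 3 reads corresponds to 0.188 to 0.206 CPM and covers counting error only.

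Values per library are given by rule for ATF4, genes called over 6 libraries, and the 2 of each role group with the lowest p over 5, while other lists show their 2 lowest p, of which some genes are not reported here. Further genes were named after their values were seen. Members, lists and tests were chosen with earlier results of these data known.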

Additional observations from a re-analysis of the deposited data

How the results depend on the processing

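Over 5 libraries, the count of genes called higher was 26 and ranged from 21 to 30 when 1 more library was left out and over the other alternatives, and 20 of the 26 kept their call in every alternative in which they were tested (ASNS, AARS, SARS, MARS, IARS and TARS did not). The count called lower over 5 libraries was 0, and 0 to 1 when 1 library was left out. Over 6 libraries, the count called higher was 5 and ranged from 0 to 26 when 1 library was left out. It was 8 with library totals, 20 with DESeq2, 8 with limma-voom, 0 at an adjusted p under 0.01 and 11 at an adjusted p under 0.1, with the other scalings, pseudocounts, filters and edgeR between 4 and 7; 0 genes were called lower in any of these. Among all genes over 6 libraries, 103 were called higher in the main setting. That count was 140 with library totals, 112 with TMM scaling and 79 with upper-quartile scaling. Counts over all genes under the other alternatives over 6 libraries are not given here. The causes of these differences were not tested.

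Samples of the 2 groups share replicate numbers. Over 6 libraries the deviations of same-numbered libraries correlated at 0.303, −0.334 and −0.101, and over 5 libraries at 0.065 and −0.042. Over 6 libraries, control replicates 1 and 2 correlated alike with Caba-780 replicate 1, at 0.303 and 0.265. The measure therefore could not show whether the numbers pair the samples. With the replicate block, 0 genes were called higher over 6 libraries, and over 5 libraries 21 were higher and 1, DDIT4, lower (−0.53, limma adjusted p = 0.0291). Called synthetase genes over 5 libraries then numbered 3 in place of 8, with AARS, SARS, MARS, IARS and TARS not passing (limma adjusted p from 0.0663 to 0.102). Apart from these and DDIT4, no call among the 49 genes changed over 5 libraries. Fewer residual degrees of freedom remain in that fit. Low read counts limit ASNS, NUPR1 and ALDH1L2, which have 44 reads or fewer in every library.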
